A study of Homo sapiens with 3 samples.

Results

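Described here are 9 genes of protein folding in the endoplasmic reticulum (ER), a set of ER chaperones and disulfide isomerases with 1 stress sensor, chosen by gene symbol. They are HSPA5, HSP90B1, CALR, CANX, PDIA3, PDIA4, PDIA6, HYOU1 and ATF6, and all 9 were found among the 33538 genes of the count files. The cells were pancreatic beta cell differentiations of H1, an established line of human embryonic stem cells, profiled in 10x Genomics droplets. There were 3 libraries, 1 each for the unedited line (WT), cells heterozygous for a PAX6 lesion (HET, PAX6+/-) and cells with both PAX6 copies affected (KO, PAX6-/-). PAX6 is a transcription factor of islet endocrine cells. Whether HET and KO were each 1 clone, where the PAX6 lesion lies and the day of harvest are all not given in the sources used here. With 1 library per genotype, genotype and library cannot be told apart, and no difference between genotypes has a replicate check or a p-value. A pair of comparisons between cell classes was also tested over the 3 libraries with edgeR's quasi-likelihood test, library as a block and Benjamini-Hochberg adjustment over all genes. That test asks for a difference shared by libraries of different genotype. Intervals are 95% intervals that cover counting error only.

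The ER is where secreted proteins such as prohormones are folded, receive sugar chains and form disulfide bonds. HSPA5 (BiP) and HSP90B1 (GRP94) are its main HSP70 and HSP90 chaperones, HYOU1 is a large HSP70-like chaperone that exchanges the nucleotide of HSPA5, and CALR and CANX are lectins that hold newly made glycoproteins. PDIA3 is the disulfide isomerase that works with these lectins, PDIA4 and PDIA6 are further isomerases of the same family, and ATF6 is a membrane-bound sensor whose released fragment is a transcription factor for many of these genes. A beta cell makes insulin as proinsulin, which needs its disulfide bonds to fold, so islet cells are known for a heavy load on this machinery.

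The genes lie on 9 different chromosomes, so no 2 of them are neighbours. In GENCODE 29 (GRCh38) HSPA5 lies at chr9:125234853-125241330 (minus strand), HSP90B1 at chr12:103930107-103953645 (plus), CALR at chr19:12938578-12944489 (plus), CANX at chr5:179678628-179730925 (plus) and PDIA3 at chr15:43746392-43773279 (plus). PDIA4 lies at chr7:149003062-149028641 (minus), PDIA6 at chr2:10783391-10837977 (minus), HYOU1 at chr11:119044189-119057202 (minus) and ATF6 at chr1:161766294-161964070 (plus). All 9 are protein coding. The processed pseudogenes HSP90B2P, HSP90B3P and PDIA3P1 and the pseudogene PDIA3P2 resemble 2 of them and have no row in the count files. CALR4P, a unitary pseudogene named after CALR, has no row either. How reads shared with any of these pseudogenes were assigned is not known here.

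The ER stress response element (ERSE) is the DNA motif bound by NF-Y and the ATF6 fragment, and its matches near these genes are shown as sequence only. Any part of it in the levels described below was not tested. RefSeq promoter windows (GRCh38.p14, from 250 bases before to 50 bases after the start) held 8 of the 9 genes, with PDIA3 as the gene not matched. The element searched, on both strands, was CCAAT, 9 bases of any letter and CCACG. It was found in 27 of 35116 promoter windows (0.0769%) and in 4 of the 8 windows of these genes. A shorter form, ERSE-II (ATTGG, 1 base of any letter and CCACG, both strands), was found in 19 windows (0.0541%), HYOU1 among them with 2 matches. The 29-base windows below are written 5′ to 3′ on the strand of the gene. Capitals mark the match, which reads in reverse for the second HSP90B1 site, for CALR and for both HYOU1 sites.
HSPA5, chr9:125241386-125241414, minus strand, match 66 to 48 bases before the start: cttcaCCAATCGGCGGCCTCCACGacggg
HSP90B1, chr12:103930211-103930239, plus strand, match 194 to 176 bases before the start: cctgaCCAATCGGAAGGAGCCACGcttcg
HSP90B1, chr12:103930316-103930344, plus strand, match 89 to 71 bases before the start: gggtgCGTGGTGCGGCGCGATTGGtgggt
CALR, chr19:12938379-12938407, plus strand, match 225 to 207 bases before the start: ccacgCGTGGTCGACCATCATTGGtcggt
CANX, chr5:179698773-179698801, plus strand, match 151 to 133 bases before the start: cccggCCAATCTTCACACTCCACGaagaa
HYOU1, chr11:119057371-119057399, minus strand, match 185 to 175 bases before the start: gccccgtgaCGTGGTCCAATcccaggccg
HYOU1, chr11:119057265-119057293, minus strand, match 79 to 69 bases before the start: ggcctgggaCGTGGTCCAATgagtacgcg

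The start is that of RefSeq, and the HSP90B1 and CANX windows lie inside the wider GENCODE 29 bounds of their genes. PDIA4, PDIA6 and ATF6 had no match of either form in their windows. A match describes the letters and not binding, and the absence of one says only that these letters were not in that window.

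Across the 3 libraries 23970 cells were kept, 8021 WT, 7819 HET and 8130 KO. The deposited libraries held 9628 to 9726 barcodes and 136834433 to 145948590 UMIs (unique molecular identifiers, 1 per captured RNA molecule), with medians of 13111 to 14365.5 UMIs per barcode. Pairs of libraries shared 26 to 43 barcode sequences and none was in all 3. Cells with at least 10 CHGA UMIs per 10000 were called CHGA-high. CHGA codes for chromogranin A, a protein of hormone granules. The 10 endocrine markers, CHGA among them, summed to 15878 to 18996 CPM (UMI counts per 1000000 UMIs of a class, TMM-scaled) in CHGA-high cells. In CHGA-low cells they summed to 411 to 745 CPM, and part of that gap was fixed by the CHGA threshold. All 10 reached 50 CPM in CHGA-high cells of each library, against 4, 3 and 3 in CHGA-low cells of WT, HET and KO. The 4 liver markers together summed to more in CHGA-low cells, at 5502 to 8551 CPM against 953 to 1528 CPM, with none at 0 in either class. In WT and HET all 4 reached 50 CPM in CHGA-high cells but only 3 did in CHGA-low cells, and in KO 3 did in both. The higher liver sum was therefore not shared by every marker in WT and HET. The proliferation markers summed to 109.6 to 194 CPM in CHGA-low against 26.7 to 41.4 CPM in CHGA-high cells. The cells labelled as beta cells were mostly CHGA-low: CHGA-high cells were 1413 in WT (17.6% of kept cells, 16.8 to 18.5), 539 in HET (6.89%, 6.34 to 7.48) and 980 in KO (12.1%, 11.4 to 12.8).

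Among CHGA-high cells a hormone counted at 50 UMIs per 10000. The classes in WT, HET and KO were 316, 107 and 18 cells with both INS and GCG, 243, 89 and 81 with INS only, 116, 19 and 12 with GCG only, 54, 9 and 4 led by SST, and 20, 38 and 128 led by GHRL. The remaining 664, 277 and 737 cells, 47.0%, 51.4% and 75.2% of the CHGA-high cells, had none of these hormones at that level and are called cells without a major hormone. The INS-only class had 7 measured beta markers that summed to 17498, 15703 and 12750 CPM, but in KO 2 of them had no UMI. INS is among the 7 and selects the class, so a high sum was fixed by the threshold. The 4 hormones took 1.65%, 1.67% and 1.49% of the UMIs of this class. At 50 CPM or more were 5, 5 and 3 of the 7, against 4, 3 and 3 in cells without a major hormone. PAX6 itself was at 357, 274 and 318 CPM in the CHGA-high cells of WT, HET and KO, so its RNA does not check the genotype labels. Of these classes only those of at least 50 cells are compared.

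In each library 8 of the 9 genes were lower in CHGA-high than in CHGA-low cells, and ATF6 was higher. A lower level was common to most genes of at least 50 CPM. Their median log2 ratio was -0.27 in WT, -0.21 in HET and -0.17 in KO, so the direction alone does not set these genes apart. HSP90B1, the ER HSP90, was at 838 CPM in CHGA-high and 1447 CPM in CHGA-low cells of WT, 942 and 1397 CPM in HET, and 740.4 and 1257 CPM in KO. The lowest CHGA-low library therefore lay above the highest CHGA-high one. PDIA4, a disulfide isomerase, differed by the greatest factor of the 9 in every library, at 136, 166 and 118 CPM in CHGA-high and 299, 274 and 267 CPM in CHGA-low cells of WT, HET and KO. It was 2.19-fold lower in WT (2.10 to 2.29), 1.66-fold in HET (1.56 to 1.76) and 2.25-fold in KO (2.14 to 2.37). PDIA6, another isomerase, was 1.63-fold (1.59 to 1.67), 1.57-fold (1.51 to 1.64) and 2.03-fold (1.96 to 2.10) lower.

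ATF6, the sensor, went the other way. It was at 45.6, 51.1 and 55.0 CPM in CHGA-high cells and 32.5, 39.3 and 38.9 CPM in CHGA-low cells, 1.40-fold (1.30 to 1.52), 1.30-fold (1.17 to 1.45) and 1.42-fold (1.30 to 1.54) higher. Each CHGA-high value of ATF6 was above each CHGA-low value. Of the 9, the lectin CANX stood closest to equal in each library. CANX was at 393, 410.0 and 375 CPM against 427, 452 and 477 CPM, and HYOU1 at 100.3, 93.3 and 88.7 CPM against 113, 113 and 125 CPM. Their direction depended on the scaling, since CANX in WT and HET, HYOU1 in WT and HSPA5 in HET were higher in CHGA-high cells on at least 1 other scale. In the test over the 3 libraries, HSP90B1, CALR, PDIA3, PDIA4 and PDIA6 were called lower in CHGA-high cells and ATF6 higher (edgeR adjusted p from 0.0014 for PDIA4 to 0.012 for PDIA3). The background was 25.9% of 19029 genes called lower and 27% called higher. HSPA5, CANX and HYOU1 were not called, with edgeR adjusted p of 0.088, 0.43 and 0.11. The log2 difference was -0.90 ± 0.11 (SE) for PDIA4, -0.59 ± 0.088 for HSP90B1 and 0.57 ± 0.077 for ATF6.

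The median log2 ratio of the 9 genes, CHGA-high to CHGA-low, was -0.48 in WT, -0.41 in HET and -0.58 in KO, beside -0.27, -0.21 and -0.17 for all genes with at least 50 CPM in either class. At least 1.5-fold lower were 3 of the 9 in WT, 2 in HET and 4 in KO. All 9 are counted here, although ATF6 in WT was below 50 CPM in both classes. The background for this was 31.4%, 25.7% and 29.3% of all such genes, so the counts were near the background in WT and HET. Without TMM factors the all-gene median moved by 0.29, 0.16 and 0.28. Relative to the all-gene median the 9 genes stood at -0.21, -0.20 and -0.40 with TMM and at -0.25, -0.22 and -0.46 without it. The classes also differed in their median mitochondrial share of UMIs (6.55%, 8.61% and 9.26% in CHGA-high, 4.73%, 6.22% and 5.42% in CHGA-low cells) and in the liver and proliferation markers given above, whose part in these differences was not tested.

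**Figure D1:**
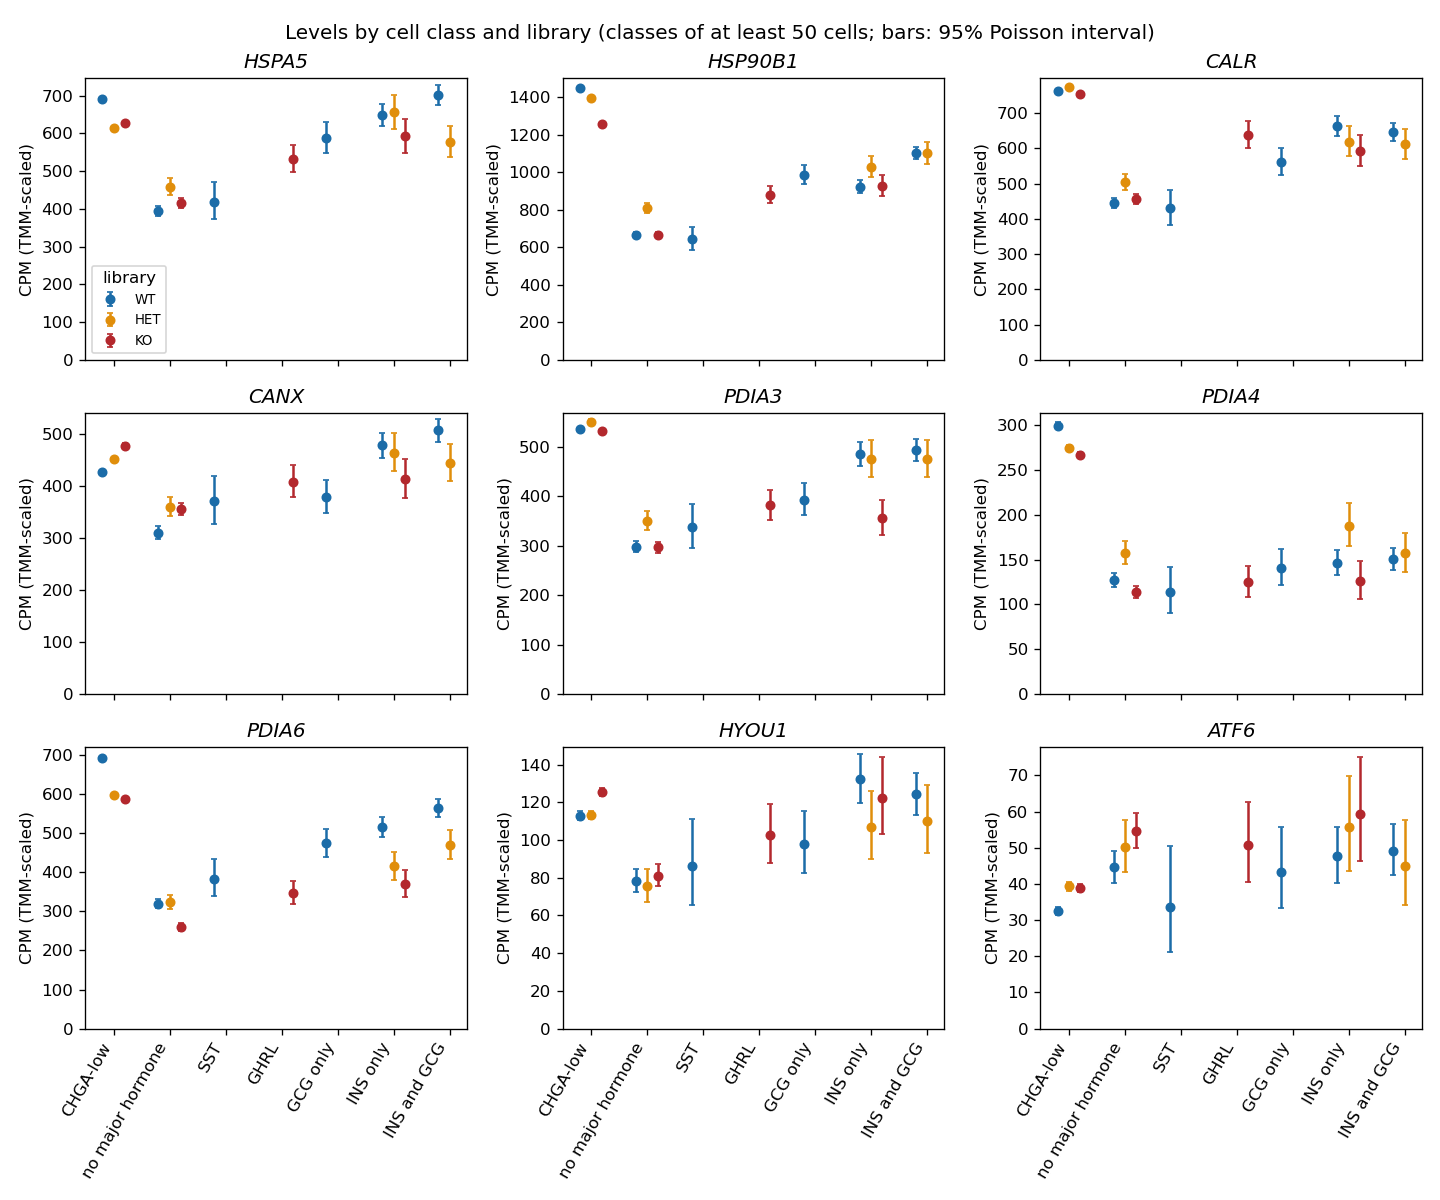
Level of each gene (vertical axis, TMM-scaled CPM) by cell class (horizontal axis) in the WT, HET and KO libraries, for classes of at least 50 cells, with 95% Poisson intervals as bars. PDIA4 is highest in CHGA-low cells (299, 274 and 267 CPM), while ATF6 is lowest there (32.5, 39.3 and 38.9 CPM), and HSPA5 in WT goes from 395 CPM without a major hormone to 701 CPM with INS and GCG.

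Among CHGA-high cells, the INS-only class had higher levels of ER chaperones than the cells without a major hormone, and all 9 genes had a ratio above 1 in each library. In the test over the 3 libraries 7 of the 9 rose in INS-only cells, against a background of 4.24% of 12818 genes called higher, and none fell (background 5.45%). They were HSPA5 (log2 0.63 ± 0.085 SE, edgeR adjusted p = 0.0023), HYOU1 (0.67 ± 0.11, 0.0049), HSP90B1, PDIA6, CALR, PDIA3 and CANX, whose adjusted p was the highest at 0.020. PDIA4 (0.15) and ATF6 (0.49) did not pass. Without HET 3 of the 9 were called, HSPA5, PDIA6 and HYOU1, and DESeq2 called 5, without CALR and CANX. HSPA5, the ER HSP70, was at 648 CPM in WT INS-only cells and 395 CPM in cells without a major hormone, 1.64-fold higher (1.55 to 1.74). In HET the levels were 655 and 459 CPM, 1.43-fold higher (1.31 to 1.55), and in KO 592 and 415 CPM, also 1.43-fold (1.31 to 1.55). HYOU1 was at 132, 107 and 122 CPM in INS-only cells of WT, HET and KO and at 78.4, 75.6 and 81.1 CPM without a major hormone, which is 1.69-fold (1.49 to 1.91), 1.41-fold (1.15 to 1.73) and 1.51-fold (1.25 to 1.81) higher. For both genes every INS-only value lay above every value of cells without a major hormone.

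The lectins and the isomerases showed the same direction with different sizes. CALR was at 662, 619 and 592 CPM with INS only and 446, 503 and 457 CPM without a major hormone. CANX was at 478, 464 and 413 CPM against 310.3, 360.1 and 355 CPM. PDIA3 was at 486, 476 and 356 CPM against 298, 351 and 297 CPM, so that it was 1.63-fold higher in WT (1.53 to 1.74), 1.36-fold in HET (1.23 to 1.49) and 1.20-fold in KO (1.08 to 1.33). For CALR, CANX and PDIA3 the lowest INS-only library lay above the highest library of cells without a major hormone, by least for PDIA3.

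PDIA6 was at 516, 416 and 370.3 CPM with INS only and 319.7, 325 and 261 CPM without a major hormone. HSP90B1 was at 923, 1029 and 927 CPM against 664, 809 and 666 CPM, 1.39-fold (1.33 to 1.45), 1.27-fold (1.19 to 1.36) and 1.39-fold (1.30 to 1.49) higher. PDIA4 and ATF6 stood closest to equal. PDIA4 was at 146, 188 and 126 CPM against 127, 157 and 114 CPM, and its KO ratio of 1.10 (0.922 to 1.31) was within counting error of 1. ATF6 was at 47.6, 55.6 and 59.4 CPM against 44.6, 50.2 and 54.6 CPM, and its interval included 1 in each library. The direction of ATF6 in this contrast changed under 1 alternative setting each in WT and KO, and no other gene changed direction.

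The median log2 ratio of INS-only cells to cells without a major hormone was 0.62 in WT (0.20 to 0.72), 0.36 in HET (0.26 to 0.50) and 0.38 in KO (0.14 to 0.51), where these intervals give the spread between the 9 genes. The all-gene medians were 0.06, 0.01 and -0.03. At least 1.5-fold higher were 5 of 9 genes in WT (HSPA5, CANX, PDIA3, PDIA6 and HYOU1), against a background of 10.2% of genes. In HET it was 0 of 9, background 7.11%, and in KO 1 of 9 (HYOU1), background 4.78%. Whether the libraries differ in this ratio was not tested. Markers of other cell types differed between these classes. The 4 autonomic neuronal markers summed to 515, 452 and 558 CPM in WT, HET and KO cells without a major hormone against 154, 165 and 157 CPM in INS-only cells, where 1 of them had no UMI in each library. The 4 liver markers, all detected, summed to 2155, 1823 and 957 CPM against 378, 731 and 1044 CPM, and the 5 duct markers to 1678, 1340.3 and 975 CPM against 805, 1182 and 1065 CPM. Of the duct markers only 1, 2 and 2 reached 50 CPM without a major hormone and 1 in INS-only cells of each library. The 8 acinar markers, of which 2 had no UMI in cells without a major hormone, summed to 258, 54.6 and 22.2 CPM against 46.3, 13.5 and 18.9 CPM. All 4 lists were higher without a major hormone in WT and HET, while in KO liver and duct were lower. Their part in the ratios was not tested.

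The other hormone classes differed among themselves. In WT cells with both INS and GCG, 6 of 9 genes were at least 1.5-fold above cells without a major hormone (background 9.69%), with HSPA5 at 701 CPM, HSP90B1 at 1102 CPM, PDIA6 at 565 CPM and HYOU1 at 124 CPM. The median was 0.71. In HET that class was at 578 CPM for HSPA5 and 1100.3 CPM for HSP90B1, with a median of 0.33, 7 genes above and none 1.5-fold higher (background 11%). The 4 hormones took 12.7% of WT and 11.0% of HET UMIs in that class. That lowers plain shares of every other gene, and without TMM the HET median was 0.07 while that of all genes was -0.28.

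WT cells with GCG only had a median of 0.33, with HSPA5 at 588 CPM and HSP90B1 at 986 CPM, and none of 9 was 1.5-fold higher (background 7.20%). WT SST cells, 54 in number, had a median of 0.09, with HSPA5 at 419 CPM and HSP90B1 at 644 CPM, and again none was 1.5-fold higher (background 4.78%). For 7 of the 9 genes the SST interval included equality with cells without a major hormone. KO GHRL cells had a median of 0.36, with HSPA5 at 532 CPM, HSP90B1 at 879 CPM and CALR at 639 CPM, 8 genes above and none 1.5-fold higher (background 10.5%). All of these ratios share the cells without a major hormone of their own library as the denominator.

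**Figure D2:**
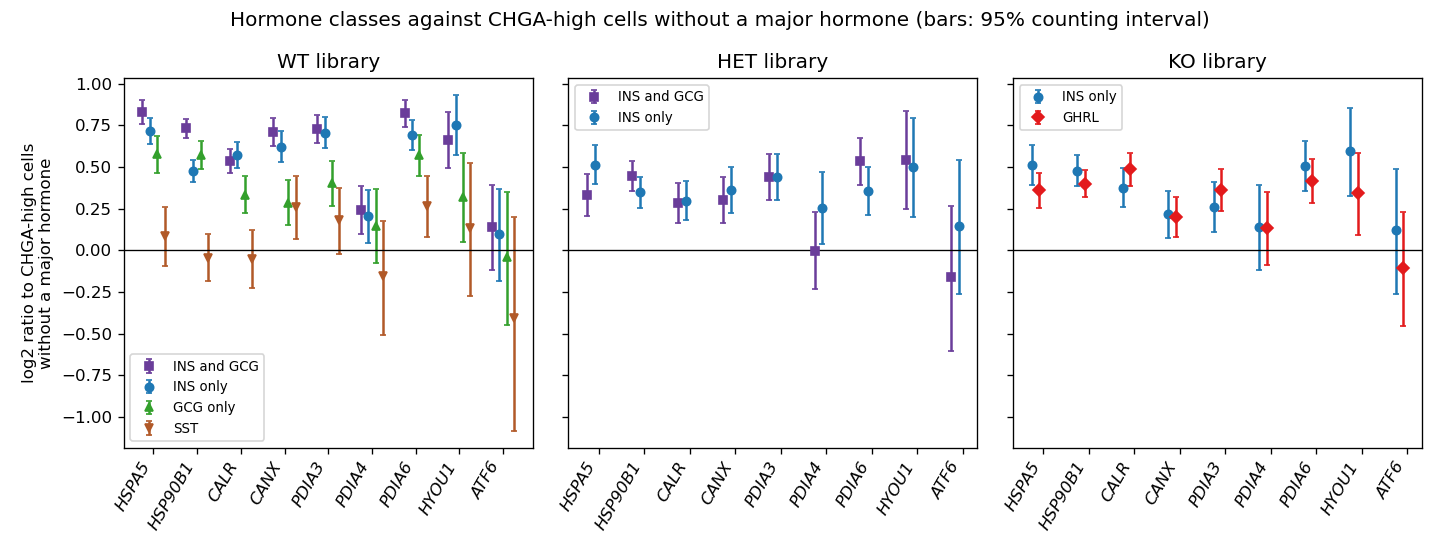
The log2 ratio of each hormone class to the cells without a major hormone (vertical axis) for the 9 genes (horizontal axis), 1 panel per library, with 95% counting intervals as bars. In WT the INS-only ratio of HSPA5 corresponds to 1.64-fold and that of PDIA4 to 1.15-fold, and the SST points scatter about 0.

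The order of the classes was similar from gene to gene. Cells without a major hormone or SST cells were lowest in WT for every gene but ATF6, whose lowest class was CHGA-low. CHGA-low cells were highest in WT for HSP90B1, CALR, PDIA3, PDIA4 and PDIA6, cells with INS and GCG were highest for HSPA5, CANX and ATF6, and INS-only cells were highest for HYOU1. The top of the HSPA5 order was not separated by counting error, as CHGA-low cells (691 CPM, 685 to 697) and cells with INS and GCG (701 CPM, 675 to 728) overlapped. The highest class exceeded the lowest by 1.78-fold for HSPA5, 2.25-fold for HSP90B1, 2.63-fold for PDIA4 and 1.51-fold for ATF6 in WT. In KO CHGA-low cells were highest for all of the genes but ATF6.

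In all CHGA-high cells together, KO had lower levels than WT for 8 of the 9 genes, all by less than 1.5-fold, and ATF6 was higher. The all-gene median log2 ratio was 0.02. Cells without a major hormone were 47.0% of these cells in WT and 75.2% in KO. Within that class 3 of the 9 genes were lower in KO and 6 higher, and within INS-only cells 7 were lower and 2 higher. The part of this make-up in the count was not tested. PDIA6 had the widest gap, at 425 CPM for WT, 379.6 CPM for HET and 289.5 CPM for KO, so KO was 1.47-fold lower than WT (1.41 to 1.53). HET lay between, 1.12-fold below WT (1.07 to 1.17). PDIA6 was also lower in KO than in WT within INS-only cells (1.39-fold, 1.25 to 1.55), within cells without a major hormone (1.23-fold, 1.16 to 1.29) and within CHGA-low cells (1.18-fold, 1.17 to 1.20). It was the 1 gene of the 9 for which the KO interval lay below WT in each of these classes.

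ATF6 was at 45.6, 51.1 and 55.0 CPM in WT, HET and KO CHGA-high cells, with KO 1.21-fold above WT (1.09 to 1.34). The same ratio was 1.22-fold (1.07 to 1.40) without a major hormone and 1.20-fold (1.14 to 1.26) in CHGA-low cells. In INS-only cells it was 1.25-fold with an interval that included equality (0.925 to 1.67). HET ATF6 was 1.21-fold above WT in CHGA-low cells (1.15 to 1.27). In CHGA-high cells the HET ratio was 1.12-fold with an interval that included equality (0.989 to 1.27).

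The chaperones and lectins differed less. HSPA5 was at 527, 548 and 460.2 CPM in WT, HET and KO, HSP90B1 at 838, 942 and 740.4 CPM, and HYOU1 at 100.3, 93.3 and 88.7 CPM. CALR was at 540.3, 569 and 507 CPM and CANX at 393, 410.0 and 375 CPM, 1.07-fold (1.03 to 1.10) and 1.05-fold (1.01 to 1.09) lower in KO than in WT. PDIA3 was at 384, 415 and 321 CPM and PDIA4 at 136, 166 and 118 CPM. HET was the highest library for 6 of the 9 genes here, namely HSPA5, HSP90B1, CALR, CANX, PDIA3 and PDIA4. The sign of KO against WT changed for CANX on the scale without TMM and for HSP90B1 with hormone classes weighted the same, and that of HET against WT for HSPA5 and CANX with hormone classes weighted the same.

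The median log2 ratio in CHGA-high cells was -0.18 for KO against WT (-0.26 to -0.07 over the 9 genes; all genes 0.02) and 0.07 for HET against WT (-0.11 to 0.17; all genes -0.02). None of the 9 passed 1.5-fold in either. The background was 6.97% of genes higher and 9.23% lower for KO, and 3.37% higher and 4.58% lower for HET. Both ratios share the WT library. Under a stricter filter of cells (3000 UMIs or more, a mitochondrial share up to 10%) the medians were -0.16 and 0.10, while the median mitochondrial share of all CHGA-high cells was 6.55%, 8.61% and 9.26% in WT, HET and KO. With the hormone classes weighted the same, KO against WT was -0.03. KO against HET had a median of -0.25 (all genes 0.03) and none of 9 past 1.5-fold (background 2.34% higher and 3.54% lower), with PDIA4 1.40-fold lower (1.30 to 1.51).

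KO and WT stood closer in cells without a major hormone and in CHGA-low cells than in INS-only cells. In cells without a major hormone the medians were 0.03 for KO and 0.21 for HET against WT, with none of 9 past 1.5-fold (background for KO 6.59% higher and 9.32% lower, for HET 3.10% and 6.37%). HSPA5 was at 395, 459 and 415 CPM there and HSP90B1 at 664, 809 and 666 CPM, so HET was the high library and WT and KO were close. In this class the enterochromaffin markers summed to 632, 602 and 1101 CPM and the mesenchymal markers to 11.3, 59.3 and 16.0 CPM in WT, HET and KO. At 50 CPM or more were 2 of the 4 enterochromaffin and 0 of the 5 mesenchymal markers in each library. The liver, duct and acinar sums given above also differed. The part of all these markers in the medians was not tested. KO against HET there was -0.15, with none past 1.5-fold (background 2.75% higher and 3.98% lower). In cells with both INS and GCG, HET against WT was -0.13, with 8 of 9 genes below WT and none past 1.5-fold (background 4.57% higher and 6.72% lower). In INS-only cells the medians were -0.16 and -0.03, again with none past 1.5-fold (background 9.61% higher and 13.7% lower for KO, 4.77% and 8.42% for HET). PDIA3 was 1.37-fold lower in KO than in WT INS-only cells (1.22 to 1.53) but the fold was 1.00 in cells without a major hormone (0.949 to 1.06). In CHGA-low cells both medians were near 0, at -0.01 and 0.00, with all-gene medians of -0.07 and -0.09 and none past 1.5-fold (background 2.36% higher and 7.33% lower for KO, 2.42% and 6.97% for HET).

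**Figure D3:**
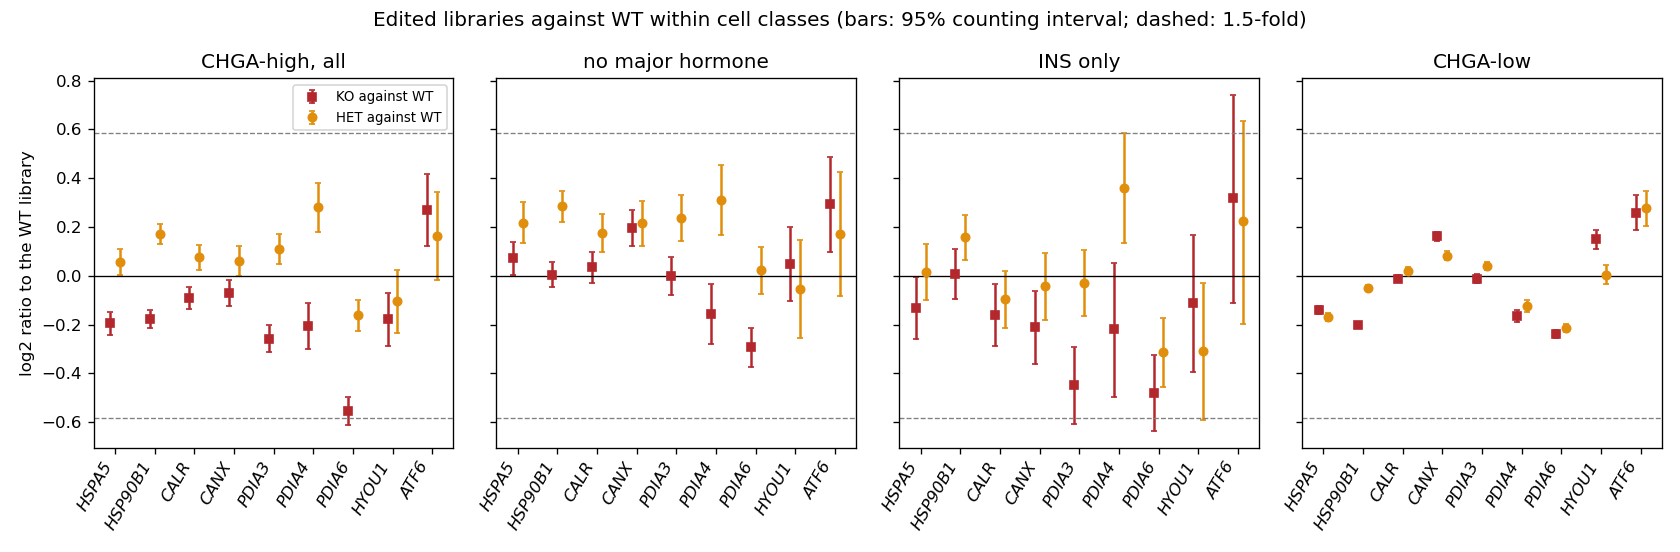
The log2 ratio of KO and of HET to WT (vertical axis) for the 9 genes (horizontal axis) in all CHGA-high cells, cells without a major hormone, INS-only cells and CHGA-low cells, with 95% counting intervals as bars and dashed lines at 1.5-fold. PDIA6 in KO lies below 0 in all 4 panels and ATF6 in KO above 0, and no point passes the dashed lines.

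A finer division of the CHGA-high cells, chosen after the data were seen, used the summed INS, GCG, SST and GHRL of each cell per 10000 UMIs and set the 9 genes against the UMIs of all but hormone and mitochondrial genes (CPM of those UMIs, with no TMM factor). In WT the summed level of the 9 genes was 2924 CPM in cells under 10, 3330.5 from 10 to 50, 4214 from 50 to 200, 4534 from 200 to 1000 and 4449 at 1000 or more. In KO it was 3083, 3377, 3925 and 4387 CPM in the first 4 groups, and only 3 KO cells were above them. Both libraries therefore had higher levels in cells with more hormone RNA, up to 1000 per 10000. In HET it was 3389, 3995, 4787, 4399 and 4361 CPM, which peaked from 50 to 200.

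At matched hormone RNA the medians of KO against WT were 0.12, -0.01, -0.07 and -0.03 in the first 4 groups. With each gene's ratio averaged over these groups, the median over the 9 genes was 0.04, beside -0.12 for all CHGA-high cells on the same scale. Those of HET against WT were 0.22, 0.23, 0.20 and 0.00. The KO medians thus lay on both sides of 0, while those of HET were above 0 in the lower 3 groups. On this scale 0 is not the all-gene level for KO. The all-gene medians of all CHGA-high cells were 0.08 for KO and 0.01 for HET against WT, and none was computed within the groups. Groups of CHGA itself gave no such rise, and in each library levels from 10 to 20 and at 50 or more were below those at no CHGA. In WT the 9 genes summed to 4283 CPM at no CHGA, 3644 from 10 to 20 and 3693 at 50 or more, in HET 4489, 4427 and 4028, and in KO 4244, 3243 and 3421. The values just under and just over the CHGA threshold, at 5 to 10 and 10 to 20, were 3822 and 3644 in WT, 4590.4 and 4427 in HET and 3935 and 3243 in KO.

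Cells without a major hormone that had at least 5 TPH1 UMIs per 10000 were low in these genes. TPH1 codes for the serotonin-making enzyme of enterochromaffin cells. The 9 genes summed to 1978 (1883 to 2077), 2719 (2562 to 2882) and 2679 (2607 to 2752) CPM in the 76 WT, 34 HET and 187 KO cells of this kind, against 3177, 3736 and 3335 CPM in the other cells without a major hormone. The TPH1 cells were the lower in WT and KO, and the HET value rests on under 50 cells. In cells under that TPH1 level, the medians against WT were 0.07 for KO and 0.23 for HET, beside 0.08 and 0.25 for the whole class on the same scale. The all-gene medians of the whole class on that scale were 0.08 for KO and 0.002 for HET.

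**Figure D4:**
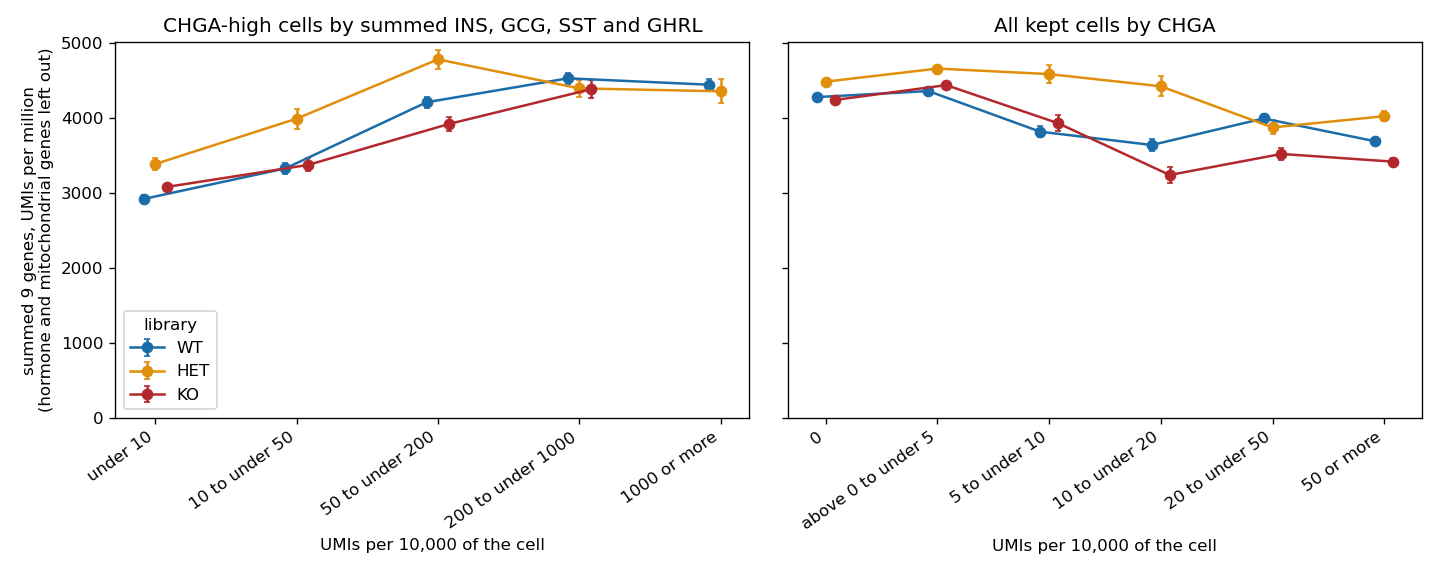
Summed UMIs of the 9 genes as CPM of the UMIs of all but hormone and mitochondrial genes (vertical axis) in CHGA-high cells by hormone RNA (left) and in all kept cells by CHGA (right), for groups of at least 50 cells, with 95% Poisson intervals as bars. In WT the left panel goes from 2924 to 4534 CPM over the first 4 groups, and the right panel ranges from 3644 to 4364 CPM without a steady rise.

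Single cells varied widely around these sums. With every cell thinned to 3000 UMIs and shallower cells left out (102, 19 and 89 CHGA-high and 113, 99 and 90 CHGA-low cells), the median CHGA-high cell had 8, 10 and 8 UMIs of the 9 genes together in WT, HET and KO. The 10th and 90th percentiles were 3 and 18, 4 and 17, and 3 and 16 UMIs. CHGA-low cells had medians of 11, 12 and 11 UMIs. The variance over the mean of this sum was 3.91 in WT CHGA-high cells and 2.63 and 2.74 in HET and KO. HSP90B1 had at least 1 UMI in 80.8% (78.5 to 82.9), 88.7% (85.6 to 91.2) and 82.7% (80.1 to 85.1) of thinned CHGA-high cells and in 93.3%, 98.0% and 89.9% before thinning. ATF6 had one in 13.2%, 13.8% and 17.1% of thinned CHGA-high cells (40.2%, 45.6% and 43.6% before thinning) and in 7.56%, 10.3% and 9.16% of thinned CHGA-low cells. No cell class here lacks these genes, so a background of free RNA was not measured for them.

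The 7 other lists of the ER folding pathway had medians from -0.75 to -0.05 in KO against WT CHGA-high cells, and whether they differ from the 9 genes was not tested. Of 10 further disulfide isomerases and oxidases that reached 50 CPM, 5 were at least 1.5-fold lower in KO CHGA-high cells and none higher, beside the background of 9.23% lower, with a median log2 ratio of -0.62 and 9 of 10 below WT. ERO1B, the islet-rich oxidase that recharges disulfide isomerases, was at 1457, 906 and 176 CPM in WT, HET and KO, 8.27-fold lower in KO than in WT. It was the oxidase with the widest gap. TMX4, a membrane thioredoxin, was at 198, 106 and 68.4 CPM, 2.89-fold lower in KO. QSOX1, a sulfhydryl oxidase, was 1.82-fold lower and ERP29, a PDI-like chaperone, 1.59-fold lower. P4HB, the founding isomerase PDI, was at 384, 304 and 242 CPM. These genes are given for all CHGA-high cells together, of which 47.0% in WT and 75.2% in KO had no major hormone. The part of that make-up in the ratios was not tested. Within cells without a major hormone 3 of 9 of this list were 1.5-fold lower in KO (background 9.32%), with a median of -0.46. Within INS-only cells it was 4 of 10 (background 13.7%), with a median of -0.40.

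Against the same background of 9.23% lower, most of the remaining lists had 1 or 2 genes past 1.5-fold. Of 10 co-chaperones and nucleotide exchange factors 2 were at least 1.5-fold lower in KO, SDF2L1 (1.64-fold) and DNAJB9 (1.54-fold), with a median of -0.20. Of 6 glycan folding genes 1 was, the cargo lectin LMAN1 (1.98-fold, median -0.36), and of 7 genes of ER-associated degradation 1 was, HERPUD1 (1.79-fold, median -0.25). The KDEL receptors, which return escaped chaperones to the ER, had a median of -0.75, with KDELR2 1.72-fold and KDELR1 1.65-fold lower in KO. KDELR2 and KDELR1 were also 1.73-fold and 1.79-fold lower in KO CHGA-low cells (background 7.33% lower). The 2 prolyl isomerases tested, PPIB (1.48-fold lower) and FKBP2 (1.10-fold lower), and the 2 tested genes of ATF6 processing and its family, MBTPS1 (1.21-fold higher) and CREB3L2 (1.31-fold lower), did not pass 1.5-fold. The splicing target of IRE1, XBP1, was at 261, 232 and 183 CPM in CHGA-high cells of WT, HET and KO, and ERN1, which codes for IRE1, at 26.6, 14.2 and 17.5 CPM. Without a major hormone, 0 of 10 co-chaperones, 2 of 6 glycan and 1 of 6 degradation genes were 1.5-fold lower in KO (background 9.32%). Their medians were -0.10, -0.31 and -0.22. Within INS-only cells it was 1 of 10, 3 of 7 and 0 of 7 (background 13.7%), with medians of -0.34, -0.41 and -0.23. The 2 tested KDEL receptors were 1.5-fold lower in each of these classes. Of the prolyl isomerases 0 of 2 and 3 of 4 were.

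Chaperones of other compartments had list medians above 0. Of 10 cytosolic chaperones 8 were above WT in KO CHGA-high cells and 1 passed 1.5-fold, HSP90AA1 (1261, 1451 and 1933 CPM in WT, HET and KO), with a median of 0.30. That share is near the background of 6.97% of genes higher. Of 5 mitochondrial chaperones 3 were above and 2 below WT and none passed 1.5-fold, with a median of 0.29, HSPE1 at 457, 488 and 559 CPM and HSPD1 at 439, 529 and 537 CPM. For KO against WT within cells without a major hormone the cytosolic median was 0.29 and the mitochondrial 0.21. Within INS-only cells they were 0.13 and 0.17. In WT INS-only cells against cells without a major hormone the medians were 0.40 for the further isomerases, 0.53 for the co-chaperones, 0.76 for the prolyl isomerases, -0.07 for the cytosolic and 0.07 for the mitochondrial chaperones, beside 0.62 for the 9 genes and 0.06 for all genes. ERO1B was 4.49-fold higher there (2501 against 557 CPM), PPIB 2.25-fold and TMX4 2.17-fold higher, while HERPUD1 was lower, at 154 against 308 CPM.

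**Figure D5:**
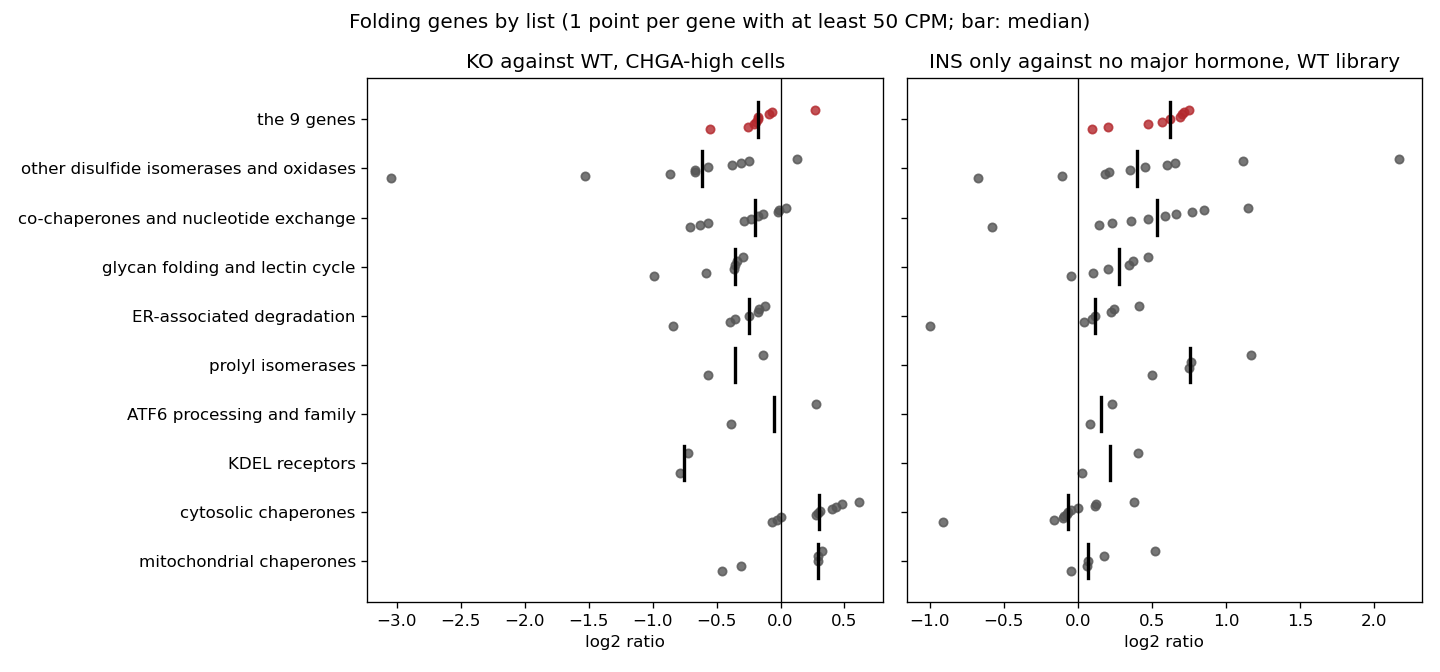
The log2 ratio (horizontal axis) of each gene with at least 50 CPM in the 9 genes and the other lists (vertical axis), for KO against WT in CHGA-high cells (left) and for INS-only cells against cells without a major hormone in WT (right), with the median of each list as a black bar. On the left the 9 genes lie near -0.18, the further isomerases and oxidases near -0.62 and the cytosolic chaperones near 0.30.

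The 9 genes were compared with each other and with 3416 other genes over the 14 class and library sums of at least 50 cells. These sums share libraries and depth, so the correlations are descriptions. HSP90B1 and CALR had the highest Pearson correlation among the 9 (0.94), and HSP90B1 and PDIA3 came next (0.92). Apart from ATF6, the lowest was 0.45 between PDIA4 and HYOU1. ATF6 had correlations from -0.57 (with PDIA6) to -0.01 (with CANX), all below 0. The genes outside the set whose pattern was most like the mean of the 9 were RPN1 (0.93), MAGT1 (0.91), RPN2 (0.89), DNAJB11 (0.89), RAB11FIP1 (0.86), FAU (0.85), STT3A (0.85), GCSH (0.85), PLAGL2 (0.84) and EI24 (0.83). RPN1, RPN2, MAGT1 and STT3A code for parts of the oligosaccharyltransferase of the ER, and DNAJB11 for an HSPA5 co-chaperone. The same correlation was 0.30 for XBP1, -0.46 for PAX6 and -0.63 for CHGA.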

How the data were processed

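The files held whole UMI counts per gene and barcode, 1 matrix for each library, as deposited. Per the file headers, Cell Ranger 6.1.2 made them. GRCh38 and Seurat are named in the submitters' processing notes, with no role stated. Annotation release, barcode filter, library end and strand setting were not given in the sources used here. No deposited column of sample values was left unused (0 of them).

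Barcodes were kept with at least 1000 UMIs, 500 genes and at most 20% mitochondrial UMIs. Scrublet (scanpy 1.11.5, expected rate 8%) called 0 doublets in each library by its automatic threshold, so the caller did not work. The top 8% of scores were removed from each library instead, and doublets may remain. Classes came from fixed thresholds of CHGA (10 per 10000 UMIs) and of INS, GCG, SST and GHRL (50 per 10000). An SST or GHRL class needed that hormone to be the highest of the 4. No clustering was used.

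Counts were summed per library and class and scaled to CPM with TMM factors over all sums (edgeR 4.0.16, R 4.3.3). Levels have exact Poisson, ratios exact conditional binomial and shares Clopper-Pearson intervals, all at 95%. Intervals of a median run from the second lowest to the second highest of the 9 ratios. Between genotypes no count model was run, since 1 library each leaves no residual degrees of freedom. CHGA-high against CHGA-low and INS-only against no major hormone were tested on the class sums of the 3 libraries with edgeR's quasi-likelihood test (library as a block, filterByExpr, 2 residual degrees of freedom), and with DESeq2 1.42.0 as an alternative. This test was added after the data were seen. Background and list counts need 50 CPM in either sum and a 1.5-fold difference. Counts of the 9 genes have no such minimum, and ATF6 was below it in some comparisons. Shares used cells thinned to 3000 UMIs. Scripts were tested on simulated data.

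Named were the 9 genes, the 4 hormones, CHGA, PAX6, ERN1 and XBP1. In each of the 9 other lists, genes at least 1.5-fold apart between KO and WT CHGA-high cells were named, at most 4 by size, or else the 2 with the highest level. The 10 genes most like the mean of the 9 were named too. P4HB, the fifth such gene of its list, falls outside the rule and was named after its values were seen. The members and lists were chosen with earlier results of these data known. Alternatives covered scaling, doublets, cell filter, both thresholds, class weights and the level minimum. Groups by hormone RNA and by TPH1 were added after the data were seen.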

Additional observations from a re-analysis of the deposited data

Results flagged for a closer look

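In 7 cases a gene differed from WT in opposite directions in a pair of cell classes, with both counting intervals away from equality. None of these differences between classes was tested, as each class has 1 library per genotype. In HET against WT, HSPA5 had a log2 ratio of 0.06 in CHGA-high and -0.17 in CHGA-low cells, a difference of 0.23. HSP90B1 had 0.17 and -0.05 there, a difference of 0.22. PDIA4 had 0.28 and -0.12, a difference of 0.41. On other scales the CHGA-low values of HSP90B1 and PDIA4 changed sign.

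In KO against WT, CANX had -0.07 in CHGA-high and 0.16 in CHGA-low cells, a difference of -0.23, and HYOU1 had -0.18 and 0.15, a difference of -0.33. CANX also had -0.21 in INS-only cells and 0.20 in cells without a major hormone, a difference of -0.41, and HSPA5 had -0.13 and 0.07, a difference of -0.20. The CHGA-high sign of CANX and the sign of HSPA5 in cells without a major hormone changed under 1 alternative each.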

How the results depend on the processing

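No paired analysis was possible between genotypes because each had 1 library and the labels give no replicate numbers. Class comparisons were blocked by library. That test called 5 genes lower and 1 higher in CHGA-high cells without any 1 library, and 3 to 7 higher in INS-only cells. It called 6 lower with no filter on low counts, HSPA5 being added. On plain library totals CANX went from -0.09 to 0.0045 and was called in neither. Of 216 single-gene ratios, 46 changed sign under an alternative, 11 of them among the 159 whose counting interval left out equality and 0 among the 21 past 1.5-fold. Of the alternative values of these ratios, 1528 stayed within the counting interval and 353 did not. Of the medians of the 9 genes under an alternative, 204 stayed within the spread between the genes and 11 moved. For the counts of genes at 1.5-fold, 180 were within 1.5 times and 26 were not. The count in HET CHGA-high against CHGA-low cells was 1 in place of 2 with doublets kept, on plain CPM and on CPM without hormone and mitochondrial genes. The count in KO against WT CHGA-high cells was 1 in place of 0, with PDIA6 past the line, when the top 15% of doublet scores were removed or the hormone threshold was 20 or 100 per 10000. Plain CPM gave 0.13 for HET against WT in CHGA-low cells in place of 0.00 and -0.35 for KO CHGA-high against CHGA-low cells in place of -0.58. Without hormone and mitochondrial genes these were 0.15 and -0.27, and the WT value was -0.11 in place of -0.48. All-gene medians shifted by 0.13, 0.28, 0.15, 0.38 and 0.43 in the same order. With hormone classes weighted the same, KO against WT in CHGA-high cells was -0.031. Averaged over matched groups of hormone RNA on the scale without hormone and mitochondrial genes, it was 0.044 for KO and 0.17 for HET. This average was added after the data were seen. That scale alone gave -0.12 and 0.10, beside all-gene medians of 0.08 and 0.01. With no level minimum, 43.1% of genes were at least 1.5-fold apart in KO against WT, 40.9% in HET against WT and 39.0% in KO against HET CHGA-high cells. The stricter cell filter and the other thresholds gave no value where a class fell below 50 cells. At this depth ATF6, SST-class and small-class values have the widest intervals, and differences between differentiations cannot be seen with 1 library each.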
